A study of Mus musculus with 4 samples.

Results

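The genes described here encode parts of the extracellular matrix and the enzymes that cut it. They are the 88 protein-coding genes of the deposited count table whose symbols name a collagen chain, a laminin chain, or an ADAMTS protease or ADAMTS-like protein, together with 9 genes of the perineuronal matrix (Acan, Bcan, Ncan, Vcan, Hapln1, Hapln3, Hapln4, Tnr and Tnc). The table holds 28193 genes, of which 16973 are protein-coding. The 88 genes comprise 44 collagen genes, 11 laminin genes, 24 ADAMTS and ADAMTS-like genes and the 9 perineuronal genes. The rule uses symbols alone and no measured value.

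The libraries came from male C57BL/6J mice, 3 to 5 months old, in which CA1 had been injected with 2 viral vectors. The first vector carries a tamoxifen-dependent Cre driven by the c-Fos promoter, and the second a Cre-dependent HA-tagged Rpl22 (RiboTag), which is a component of the large subunit of ribosomes. The labels give the genotype as cFos-Cre:Ribotag and the tissue as dorsal hippocampus, whereas the study's methods name microdissected CA1. All mice, controls included, received 4-OHT and were sleep deprived for 5 h on day 0, so that neurons with an active c-Fos promoter were tagged. On day 7 the sleep-deprived (SD) mice were kept awake for 5 h again and the non-sleep-deprived (NSD) mice were not deprived, and CA1 was collected at ZT 5. HA antibody then pulled down the tagged ribosomes with their mRNA, a method called fosTRAP-seq. Each library pooled CA1 of 5 mice, so the 10 mice of a group gave 2 libraries, and every standard deviation below is a spread between 2 pools. The groups were formed on day 7 and differ by design in the second bout, and the number of tagged cells in a pool was not measured in these files.

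Collagens are triple helices of alpha chains. Fibrillar collagens are secreted as procollagens and assemble into fibers after proteases remove their end peptides, while type IV collagen forms the sheet-like network of basement membranes together with laminins, heterotrimers of an alpha, a beta and a gamma chain. In the brain, basement membranes surround blood vessels and line the pial surface, and fibrillar collagen is found mostly in meninges and around larger vessels. The space between neurons holds another matrix, built on hyaluronan, to which link proteins (Hapln genes) fasten the lecticans aggrecan, brevican, neurocan and versican, and which tenascin-R cross-links. Its densest form, the perineuronal net, wraps certain neurons, among them many parvalbumin interneurons and the pyramidal cells of CA2. Several ADAMTS proteases cut lecticans, and others process procollagen or act on microfibrils. Much of this matrix is made by glia, vascular cells and fibroblasts, and some members are made by neurons.

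The 4 libraries held 153511705 to 195910235 estimated counts, with 26179 to 27551 genes counted at least once. Values are given as CPM, counts scaled to a common library size by edgeR's TMM factors, between 0.965 and 1.02. Counting noise alone did not account for the spread within a group, since the chi-square per degree of freedom was 99.6 for the NSD pair and 53.4 for the SD pair. The list of CA1 pyramidal markers summed to 6111 to 6674 CPM per library, the largest sum of the 12 marker lists examined. Most of it was Camk2a, at 4285, 4338, 4090 and 4379 CPM in NSD 1, NSD 2, SD 1 and SD 2. The rank of this sum thus rests largely on 1 gene and is not a measure of CA1 identity. Markers of glia, vessels and fibroblasts were also counted in every library, none of them at 0 throughout. For the matrix genes, 2 libraries stood at the ends. NSD library 1 was the highest of the 4 libraries for 47 of the 86 genes tested (54.7%, against 24.2% of protein-coding genes), and SD library 2 was the lowest for 50 of the 86 (58.1%, against 25.9%). NSD library 1 also had the largest share of its counts in genes of the class TEC, transcripts awaiting experimental evidence (0.273%, 0.210%, 0.157% and 0.118% in NSD 1, NSD 2, SD 1 and SD 2). The part of that difference in the results below was not tested, and values without one of these libraries are given beside the results that it changed most.

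Across the whole group, most matrix genes had a lower level in SD than in NSD, but few passed the test. Of the 88 genes, 86 had more than 5 counts in every library and were tested, and Col17a1 and Col6a5 were not. The log2 fold change (SD over NSD) was below 0 for 62 of the 86 and above 0 for 24, with a median of -0.19, where the median was 0.018 over the 15551 protein-coding genes tested and -0.016 over all 22338 genes tested. For 29 matrix genes both SD values were lower than both NSD values, for 9 both were higher, and for 48 the groups overlapped. Among all protein-coding genes tested, 20.0% had both SD libraries lower and 26.5% had both higher, and among all genes tested the shares were 27.5% and 22.0%. In the heat map of the 4 libraries the NSD 1 column is the reddest and the SD 2 column the bluest for the collagens and for several laminin and ADAMTS genes. The lower median rests on NSD library 1: without it 43 of the 86 genes were below 0 and the median was 0.0011. It was -0.23 without NSD library 2, -0.24 without SD library 1 and -0.091 without SD library 2.

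**Figure D1:**
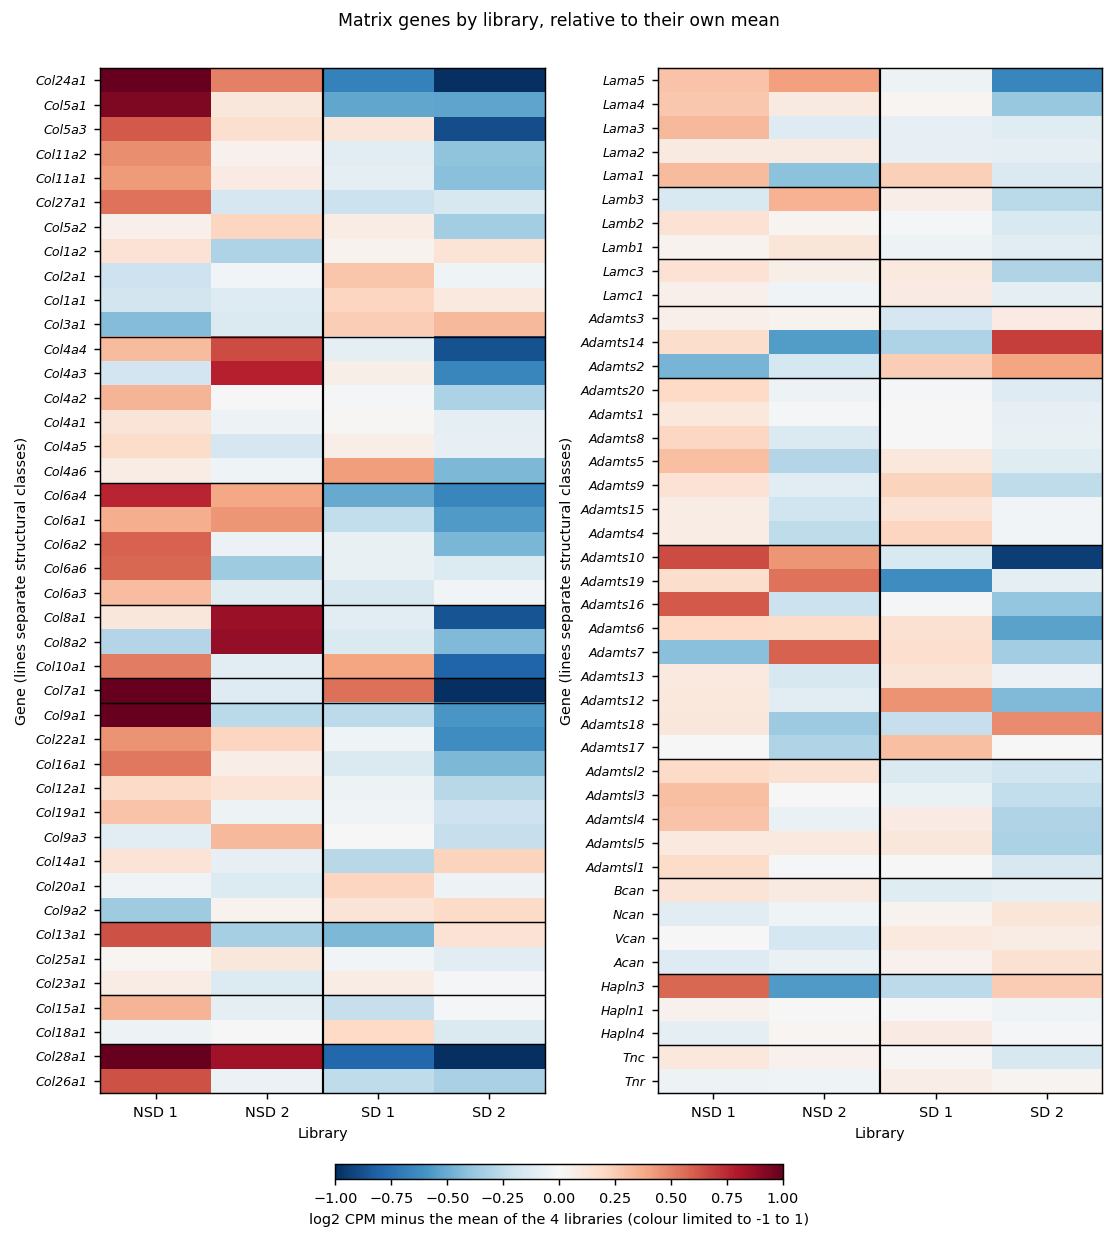
Log2 CPM of 85 of the 86 tested matrix genes in each library (columns) after subtraction of the gene's mean over the 4 libraries, with collagens on the left and laminin, ADAMTS and perineuronal genes on the right, and lines between structural classes. Red is above and blue below the gene's own mean, and NSD 1 is the highest library for 47 of the 86 genes and SD 2 the lowest for 50.

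The families did not share 1 pattern. For collagens the median log2 fold change was -0.34, with 33 of 42 genes below 0 and both SD libraries lower for 17 and higher for 3. Laminins had a median of -0.18, with 9 of 11 below 0. ADAMTS and ADAMTS-like genes had a median of -0.084, with 16 of 24 below 0, and the perineuronal genes a median of 0.069, with 4 of 9 below 0. Without NSD library 1 the medians were -0.13 for collagens (24 of 42 below 0), -0.12 for laminins, 0.035 for ADAMTS genes and 0.12 for the perineuronal genes. In sums over a family, the collagens made up 232 and 209 CPM in NSD and 201 and 181 CPM in SD. The perineuronal genes made up 953 and 972 CPM in NSD and 1017 and 1024 CPM in SD. The summed collagen level was thus lower, and the summed perineuronal level higher, in both SD libraries, and no test was run on the sums. Most of the perineuronal sum was Ncan and Tnr. At their level, 20 CPM and above, 39.4% of protein-coding genes tested had both SD libraries higher.

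A gene was called when edgeR's quasi-likelihood test gave an adjusted p under 0.05 over all genes tested and the fold change exceeded 1.2. By that rule 1 matrix gene rose, Adamts2, and 1 fell, Col5a1. The background was 0.952% of protein-coding genes called higher and 0.540% called lower (0.770% and 2.33% of all genes tested), so the counts of matrix genes are near what genes at large show. Each library has a batch number in the labels, and each batch holds 1 NSD and 1 SD library. With the batch as a block in the same edgeR fit, 2 matrix genes were called higher (Adamts2 and Col3a1) and 9 lower (Col5a1, Col24a1, Col11a2, Col28a1, Col6a1, Col6a4, Col4a2, Lama5 and Adamts10), against 3.77% and 3.29% of protein-coding genes and 2.99% and 8.47% of all genes tested. DESeq2, the tool the study used, called 2 higher and 6 lower, where 3.91% and 1.79% of protein-coding genes and 2.99% and 5.79% of all genes were called. All 6 lower genes and both higher genes of DESeq2 are among those named with the block. At an unadjusted p under 0.05, edgeR gave 3 higher and 12 lower matrix genes, where the shares were 8.86% and 5.76% of protein-coding genes and 6.86% and 12.2% of all genes tested. The calls of matrix genes are set beside the share of all genes tested in the other settings too. DESeq2's size factors in edgeR gave 1 higher and 0 lower (1.03% and 2.05% of all genes), as did no count filter (0.177% and 0.284%) and protein-coding genes only (0.328% and 0.251%). With filterByExpr 0 and 0 were called (0.00411% and 0.00%), and 3 and 12 were at an unadjusted p under 0.05 (6.55% and 11.6%). Leaving out NSD library 1 gave 1 and 0 (0.555% and 0.349%), NSD library 2 gave 1 and 1 (1.03% and 2.00%), SD library 1 gave 1 and 10 (1.31% and 8.75%) and SD library 2 gave 1 and 1 (1.38% and 3.47%). The plot of fold changes by structural class shows that all but 2 of the lower calls were collagens.

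**Figure D2:**
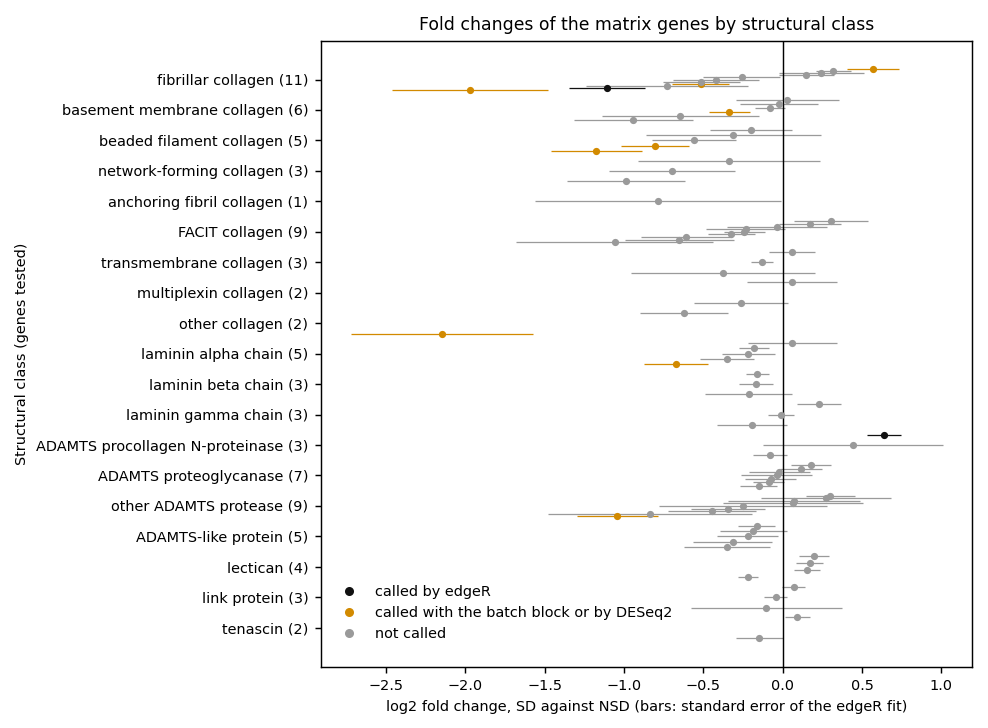
Log2 fold change (SD over NSD, with the standard error of the edgeR fit) of each tested matrix gene, in rows by structural class with the number of genes tested. Black points are the 2 genes called by edgeR, orange points the 9 further genes called with the batch block, and grey points the rest, with most collagen points to the left of 0 and most lectican points to the right.

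Among the fibrillar collagens and the protease that trims them, levels moved both ways. Adamts2, which encodes the main enzyme that removes the amino-terminal propeptide of fibrillar procollagens, was at 21.6 and 26.4 CPM in NSD and at 35.4 and 39.2 CPM in SD. Both SD libraries were well above both NSD libraries. The gene (ENSMUSG00000036545, chr11:50492911-50698400 of GRCm39) rose from 24 ± 3.4 to 37.3 ± 2.7 CPM (s.d., n = 2 each), which is 1.56-fold. Its log2 fold change was 0.64 (standard error 0.11, edgeR adjusted p = 0.0363), with an edgeR adjusted p of 5.66e-05 with the block and a DESeq2 adjusted p of 3.65e-06. It kept between 0.53 and 0.79 whichever library was left out. The call was lost, at an edgeR adjusted p of 0.0628, only with edgeR's filterByExpr among the settings run, where 1 of all 24323 genes tested was called. No other gene shares exon bases with Adamts2.

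Col3a1 encodes the chain of type III collagen, a substrate of the Adamts2 enzyme that forms thin fibers in vessel walls and meninges. It measured 3.26 and 3.98 CPM in NSD and 5.24 and 5.53 CPM in SD, again with no overlap between the groups. On the log2 scale the change was 0.57 (standard error 0.16, edgeR adjusted p = 0.0993), and Col3a1 was called with the block (edgeR adjusted p = 0.0141) and by DESeq2 (adjusted p = 0.0158). Col1a1, a chain of type I collagen and the fibrillar collagen with the highest level per kilobase of exon, was at 7.57 and 7.86 CPM in NSD and at 10.01 and 9.22 CPM in SD. Here too both SD libraries were higher, with a log2 fold change of 0.32 that was not called (edgeR adjusted p = 0.160, and 0.0602 with the block). Col1a2, the partner chain of Col1a1 in type I collagen, overlapped between groups at a log2 fold change of 0.15.

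Col5a1 encodes a chain of type V collagen, a minor fibrillar collagen that starts and limits the width of type I fibers. It was at 11.2 and 6.31 CPM in NSD and at 4.07 and 4.05 CPM in SD. The SD libraries were nearly equal and below both NSD libraries, which differed from each other far more. Col5a1 (ENSMUSG00000026837, chr2:27776437-27929526) fell from 8.74 ± 3.44 to 4.06 ± 0.0187 CPM (s.d., n = 2 each), 2.15-fold lower. The log2 fold change was -1.11 (standard error 0.24, edgeR adjusted p = 0.0491), with an edgeR adjusted p of 0.00108 with the block and a DESeq2 adjusted p of 0.000322. This call sits at the threshold and depends on NSD library 1: without that library the log2 fold change was -0.61 (edgeR adjusted p = 0.137). It was also lost with DESeq2's size factors in edgeR (adjusted p = 0.0552), with no count filter (0.0724), with filterByExpr (0.0800) and with protein-coding genes only (0.0706). A long non-coding RNA, 2810430I11Rik, lies on the other strand over 99 of its exon bases, with 7.39% of the Col5a1 count.

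Other minor fibrillar collagens were also lower. Col24a1, a fibrillar collagen known from bone, measured 0.826 and 0.452 CPM in NSD and 0.194 and 0.132 CPM in SD. That is 137 and 71 counts against 35 and 25, with all SD values below all NSD values. The fitted log2 change was -1.97 (standard error 0.49, edgeR adjusted p = 0.0706), and it was called with the block (edgeR adjusted p = 0.0110) and by DESeq2 (adjusted p = 0.0147). Col11a2, a chain of type XI collagen best known from cartilage, was at 8.83 and 6.56 CPM in NSD and at 5.93 and 4.83 CPM in SD. The nearest values of the groups, 6.56 and 5.93 CPM, were close. Its log2 fold change was -0.52 (edgeR adjusted p = 0.152), and Col11a2 was called with the block (edgeR adjusted p = 0.0106) but not by DESeq2 (adjusted p = 0.0850). Without NSD library 1 its log2 fold change was -0.26. Over the 11 fibrillar collagens 4 were above 0 (Col3a1, Col1a1, Col2a1 and Col1a2) and 7 below. Besides those described, Col5a3 (-0.73) and Col11a1 (-0.51) had both SD libraries lower, and Col27a1 (-0.42) and Col5a2 (-0.26) overlapped between the groups.

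The sequences next to the starts of the 2 genes called by edgeR, and of Col3a1, are shown because Col3a1 was the other gene called higher with the block and by DESeq2. Each is the 250 bases before the outermost annotated gene start of GENCODE M39 on GRCm39, read on the + strand, the strand of all 3 genes, and none of the windows overlaps an annotated exon. For Adamts2 and Col5a1 this start lies upstream of the start in the deposited table. Capitals mark GC boxes (GGGCGG, or CCGCCC on the other strand) in Adamts2 and Col5a1, and a TATA box (TATAAA) in Col3a1.
Adamts2, chr11:50492537-50492786: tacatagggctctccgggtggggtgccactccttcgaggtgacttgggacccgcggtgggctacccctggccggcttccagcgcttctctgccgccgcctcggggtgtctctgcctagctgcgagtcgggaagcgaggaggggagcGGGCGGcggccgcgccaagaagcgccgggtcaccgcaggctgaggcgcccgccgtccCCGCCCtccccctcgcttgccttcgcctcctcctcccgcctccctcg
Col3a1, chr1:45350448-45350697: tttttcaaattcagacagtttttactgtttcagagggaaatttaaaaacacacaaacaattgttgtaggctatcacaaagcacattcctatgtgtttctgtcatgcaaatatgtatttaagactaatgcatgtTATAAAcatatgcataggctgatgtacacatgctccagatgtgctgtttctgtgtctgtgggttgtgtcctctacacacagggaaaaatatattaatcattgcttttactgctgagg
Col5a1, chr2:27776147-27776396: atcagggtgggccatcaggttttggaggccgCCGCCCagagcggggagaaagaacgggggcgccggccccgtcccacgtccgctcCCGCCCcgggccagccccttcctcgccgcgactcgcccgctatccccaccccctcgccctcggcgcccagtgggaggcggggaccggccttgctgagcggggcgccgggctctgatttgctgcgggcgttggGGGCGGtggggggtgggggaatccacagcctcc
The windows of Adamts2 and Col5a1 were rich in G and C (73.6% and 75.6%) and that of Col3a1 was not (35.2%), where the median was 53.2% over the same window of 16943 protein-coding genes and 55% over the 88 matrix genes. GC boxes, searched on both strands, were found in 36.1% of the 16943 windows and in 36 of the 88 matrix genes (40.9%). The TATA box was found in 9.22% of all windows and in 13 matrix genes (14.8%). Motifs bound by factors that neuronal activity induces or activates were searched the same way. The AP-1 letters used, TGANTCA with any base at N, are wider than the usual AP-1 site. They were in 2 of the 88 windows, those of Adamts3 and Lamb1 (2.27%, against 5.29% of all). The CRE letters TGACGTCA and EGR letters GCGTGGGCG were in 0 of the 88 (1.36% and 0.484% of all). A match or its absence describes these letters in these windows only.

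**Figure D3:**
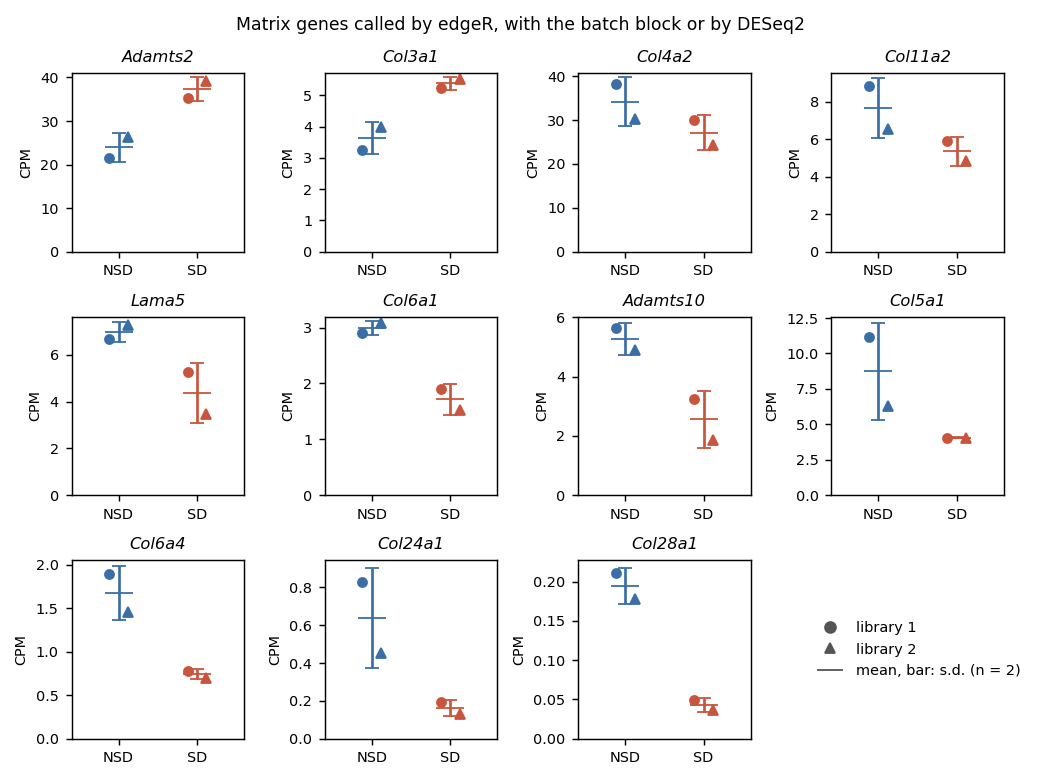
CPM in each library of the 11 matrix genes called by edgeR, with the batch block or by DESeq2, ordered from the largest rise to the largest fall, with NSD in blue, SD in red, circles for library 1, triangles for library 2, and lines for the mean and s.d. (n = 2). In all 11 genes the NSD and SD libraries do not overlap, and the 2 NSD libraries of Col5a1 lie far apart at 11.2 and 6.31 CPM.

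None of the type IV collagen or laminin genes, the core of basement membranes, was called by edgeR. Both SD libraries were lower for 2 of 6 type IV genes and 5 of 11 laminin genes. Col4a1 and Col4a2 encode the chains of the common type IV collagen, and Col4a2 was at 38.2 and 30.2 CPM in NSD and at 29.9 and 24.3 CPM in SD. NSD library 2 and SD library 1 were almost equal, so the groups barely separate. On the log2 scale the change was -0.34 (standard error 0.13, edgeR adjusted p = 0.206), and Col4a2 was called with the block (edgeR adjusted p = 0.00412) and not by DESeq2 (adjusted p = 0.157). It was -0.13 without NSD library 1 and -0.18 without SD library 2. Col4a1 overlapped between the groups, at a log2 fold change of -0.08 (adjusted p = 0.731 by edgeR). In GENCODE M39 the exons of these neighbours share 311 bases on opposite strands. Col4a4, at 0.412 to 1.21 CPM, had both SD libraries lower (log2 fold change -0.94, edgeR adjusted p = 0.216), and the other type IV genes, Col4a3, Col4a5 and Col4a6, overlapped between the groups.

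Laminins followed the same direction. Lama5, the alpha chain of laminins that mature vessel walls carry, was at 6.67 and 7.28 CPM in NSD and at 5.28 and 3.47 CPM in SD. All SD values were below all NSD values, with SD library 2 the lowest. The log2 fold change was -0.67 (standard error 0.20, edgeR adjusted p = 0.107), and it was called with the block (edgeR adjusted p = 0.0107) and by DESeq2 (adjusted p = 0.0257). Without SD library 2 the value was -0.39 (edgeR adjusted p = 0.410). Lama5 shares 85 exon bases with Adrm1 on the other strand, a gene with 280% of its count. Lama2, an alpha chain of basement membranes in muscle and around brain vessels, was at 13.0 CPM in both NSD libraries and at 11.5 and 11.4 CPM in SD. This small gap was clean between groups, and the log2 fold change of -0.18 was not called (edgeR adjusted p = 0.343).

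The laminin genes with the highest level per kilobase of exon were Lamc1 and Lamb1, the gamma and beta chains shared by most laminins. Lamb1 measured 30.6 and 32.5 CPM in NSD and 28.9 and 27.7 CPM in SD, or -0.16 on the log2 scale (edgeR adjusted p = 0.298). Both SD libraries were lower for Lamb1, which shares 303 exon bases with Dld on the other strand (167% of its count). Lamc1 measured 36.4 and 34.4 CPM in NSD and 37.3 and 33.0 CPM in SD. The groups overlapped entirely, at a log2 difference of -0.01 (edgeR adjusted p = 0.969) whose sign turned under DESeq2's scaling. Lama1, Lama3, Lama4, Lamb2, Lamb3 and Lamc3 lay between -0.35 and 0.06.

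Markers of vascular cells were lower as well. The 16 endothelial markers examined, Pecam1, Cdh5, Cldn5, Flt1 and Tek among them, summed to 79.2 and 106 CPM in NSD and to 69.1 and 49.4 CPM in SD. All 16 were below 0 (median log2 fold change -0.59), 11 with both SD libraries lower, and none was at 0 in every library. Of the 16, edgeR called 0 (8 were at an unadjusted p under 0.05), the fit with the block 7 and DESeq2 5, all lower. The shares of protein-coding genes lower by these 4 rules were 0.540%, 5.76%, 3.29% and 1.79%, and those of all genes tested 2.33%, 12.2%, 8.47% and 5.79%. The 11 mural cell markers summed to 78.6 and 73.8 CPM in NSD and to 69.7 and 57.9 CPM in SD, with 10 of 11 below 0. Choroid plexus, an epithelium on a basement membrane of its own, had 5 of its 6 markers tested, all below 0 (median log2 fold change -0.71). They summed to 61.3 and 133 CPM in NSD and to 63.9 and 40.2 CPM in SD, which overlap, and none of the 6 was at 0 in every library. Ttr, the transthyretin gene and the defining marker, was at 14.2, 69.8, 25.6 and 4.21 CPM in NSD 1, NSD 2, SD 1 and SD 2. Kl, which encodes klotho, was at 45.2 and 57.4 CPM in NSD and at 35.4 and 34.9 CPM in SD, and was called lower by edgeR (adjusted p = 0.0405), with the block and by DESeq2. Kl held most of the list's sum in NSD 1, SD 1 and SD 2. Its SD values were nearly equal while those of Ttr were far apart, so the call of Kl is not read as a change of the choroid plexus. Fibroblast markers, by contrast, summed to 76.5 and 67.6 CPM in NSD and to 77.0 and 71.4 CPM in SD, which overlap. Of the 9 tested, 4 were above 0 and 5 below. Most of the sum was Igf2 and Pdgfra, and Pdgfra was also on the list of markers of oligodendrocyte precursors. Endothelial and mural levels were thus lowest in SD library 2, as for 50 of the matrix genes, but the endothelial sum was highest in NSD library 2 and not in NSD library 1. The choroid plexus sum was likewise highest in NSD library 2 and lowest in SD library 2. The part of the vascular and choroid plexus cells in the collagen and laminin values was not tested. In pooled tissue, fewer cells of a type in the pulldown and less RNA per cell cannot be told apart.

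Beaded filament collagens, the type VI chains that lie between basement membrane and interstitial matrix, had a log2 fold change below 0 in all 5 genes tested. Col6a1 was at 2.90 and 3.07 CPM in NSD and at 1.90 and 1.52 CPM in SD. The NSD libraries were close to each other and well above SD. The fitted log2 change was -0.80 (standard error 0.21, edgeR adjusted p = 0.0837), with calls with the block (edgeR adjusted p = 0.0140) and by DESeq2 (adjusted p = 0.0146). Col6a4 was at 1.89 and 1.46 CPM in NSD and at 0.780 and 0.703 CPM in SD, so both SD libraries were near the same low level. Its log2 fold change was -1.18 (standard error 0.29, edgeR adjusted p = 0.0665), and Col6a4 was called with the block (edgeR adjusted p = 0.0100) and by DESeq2 (adjusted p = 0.00681). With each library left out, Col6a1 stayed between -0.97 and -0.64 and Col6a4 between -1.35 and -0.95. Col6a2 had both SD libraries lower by a narrow margin (log2 fold change -0.56, and -0.85 to -0.17 with a library left out), and Col6a3 and Col6a6 overlapped. Col6a5 was not tested, with 10, 5, 11 and 25 counts in NSD 1, NSD 2, SD 1 and SD 2.

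The largest fitted fall was that of Col28a1, a collagen with von Willebrand factor domains known from nerve sheaths. It had 35 and 28 counts in NSD and 9 and 7 counts in SD, or 0.211 and 0.178 CPM against 0.0498 and 0.0370 CPM. All SD values were far below all NSD values, but from few counts. On the log2 scale the change was -2.15 (standard error 0.57, edgeR adjusted p = 0.0836), called with the block (edgeR adjusted p = 0.0344) and not by DESeq2 (adjusted p = 0.163). Col26a1, of a small unclassified type, was at 2.83 and 1.74 CPM in NSD and at 1.52 and 1.45 CPM in SD. Its SD values were lower than both NSD values, at a log2 fold change of -0.62 (adjusted p = 0.269 by edgeR) that was -0.20 without NSD library 1.

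Among the remaining collagens none was called. Col25a1, a transmembrane collagen made by neurons, had the highest level per kilobase of exon of all collagens and measured 62.1 and 66.0 CPM in NSD and 60.0 and 56.9 CPM in SD. Both SD libraries were slightly lower (log2 fold change -0.13, edgeR adjusted p = 0.360). Col19a1, the FACIT collagen (a fiber-associated type) with the highest level, is made by subsets of interneurons. It was at 16.4 and 12.9 CPM in NSD and at 13.1 and 11.6 CPM in SD, which overlap (log2 fold change -0.24, edgeR adjusted p = 0.362, and -0.035 without NSD library 1). The other 8 FACIT genes ranged from -1.06 to 0.30, 3 of them with both SD libraries lower and 1, Col9a2, with both higher.

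In some further collagens the groups overlapped. Col8a2, a network-forming collagen, was at 0.935 and 2.12 CPM in NSD and at 1.04 and 0.841 CPM in SD. Its log2 fold change of -0.70 (adjusted p = 0.402 by edgeR) came from NSD library 2 and was 0.01 without it. Col7a1, the anchoring fibril collagen, was at 0.308 and 0.127 CPM in NSD and at 0.210 and 0.0423 CPM in SD, with overlap and a log2 fold change of -0.79 (adjusted p = 0.670 by edgeR). Col15a1, a multiplexin, was at 1.40 and 1.04 CPM in NSD and at 0.941 and 1.09 CPM in SD, with overlap (log2 fold change -0.26, edgeR adjusted p = 0.719, and -0.0020 without NSD library 1). Col18a1, the other multiplexin, was at 0.06, and the transmembrane genes Col13a1 and Col23a1 at -0.38 and 0.06, all 3 with overlap. Col8a1 and Col10a1, network-forming like Col8a2, were at -0.99 and -0.34, and for Col8a1 alone of the 3 both SD libraries were lower. Col17a1, a transmembrane collagen of skin, was not tested, with 43, 18, 14 and 5 counts in NSD 1, NSD 2, SD 1 and SD 2.

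The ADAMTS proteases besides Adamts2 showed 1 more gene that passed a test. Adamts10, a protease associated with fibrillin microfibrils, was at 5.65 and 4.89 CPM in NSD and at 3.25 and 1.87 CPM in SD. All SD values were lower, and the SD libraries differed from each other more than the NSD libraries. The log2 fold change was -1.04 (standard error 0.25, edgeR adjusted p = 0.0669), and Adamts10 was called with the block (edgeR adjusted p = 0.00101) and by DESeq2 (adjusted p = 0.00247). It was -1.49 without SD library 1 and -0.69 without SD library 2. Adamts17 had the highest level per kilobase of exon among the 9 other ADAMTS proteases, at 7.83 and 6.32 CPM in NSD and 9.63 and 7.79 CPM in SD. The groups overlapped narrowly, with a log2 fold change of 0.30 (adjusted p = 0.347 by edgeR). With each library left out it ran from 0.14 to 0.49. Adamts6 (-0.35) and Adamts19 (-0.84) had both SD libraries lower, and Adamts7, Adamts12, Adamts13, Adamts16 and Adamts18 overlapped, between -0.45 and 0.27.

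The 7 proteoglycanases, the ADAMTS members known or held to cut lecticans, stayed within a narrow range of -0.15 to 0.18 (log2 fold change). None was called, and NSD and SD libraries overlapped for all 7. Adamts4, an aggrecanase, had the highest level per kilobase of exon of them and was at 21.9 and 17.5 CPM in NSD and at 24.2 and 20.4 CPM in SD. In each batch its SD library was higher, but NSD library 1 exceeded SD library 2 (log2 fold change 0.18, edgeR adjusted p = 0.515, and 0.124 with the block). The procollagen N-proteinases related to Adamts2 did not follow it: Adamts3 was at 13.7 and 13.6 CPM in NSD and at 11.8 and 14.1 CPM in SD. Adamts14 was rare, at 0.229 and 0.134 CPM in NSD and at 0.160 and 0.333 CPM in SD. The change of 0.44 on the log2 scale, with a standard error of 0.57 (adjusted p = 0.759 by edgeR), turned to -0.17 without SD library 2. No test compared Adamts2 with these relatives.

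ADAMTS-like proteins lack the protease domain. All 5 genes tested were below 0, from -0.35 to -0.16, and none was called. Adamtsl4, the highest per kilobase of exon, was at 5.89 and 4.60 CPM in NSD and at 5.10 and 3.91 CPM in SD, which overlap (log2 fold change -0.22, edgeR adjusted p = 0.612, and -0.0035 without NSD library 1).

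The perineuronal matrix held the most abundant members, and their changes were small. Of the lecticans, the hyaluronan-binding proteoglycans, 3 were higher in both SD libraries and 1 lower, and none was called. At 20 CPM and above, where Ncan, Vcan and Bcan lie, 39.4% of protein-coding genes tested had both SD libraries higher and 12.1% both lower. From 5 to 20 CPM, where Acan lies, both shares were 22.7%. Neurocan (Ncan) was at 353 and 371 CPM in NSD and at 390 and 414 CPM in SD, or 0.15 on the log2 scale (standard error 0.083, edgeR adjusted p = 0.379). Aggrecan (Acan), the core of perineuronal nets, was at 12.1 and 12.7 CPM in NSD and at 13.7 and 14.8 CPM in SD. For both genes the groups separated by a small part of the level. The log2 fold change of Acan was 0.20 (standard error 0.095, edgeR adjusted p = 0.313). Versican (Vcan) was at 24.4 and 21.6 CPM in NSD and at 26.1 and 25.7 CPM in SD (log2 fold change 0.17, edgeR adjusted p = 0.339).

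Brevican (Bcan), a lectican held at synapses and made by astrocytes and neurons, differed in direction. It was at 93.1 and 91.0 CPM in NSD and at 78.3 and 79.7 CPM in SD. Libraries of a group agreed closely, and the groups were well apart. The fitted log2 change was -0.22 (standard error 0.063, edgeR adjusted p = 0.0976). With the block the edgeR adjusted p was 0.0156, but the change is under the fold of 1.2 that a call required. With each library left out it stayed between -0.24 and -0.17. No test compared Bcan with the other lecticans.

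The 3 link proteins overlapped between the groups, and both tenascins separated by small amounts. Hapln1, which fastens lecticans to hyaluronan, was at 27.2 and 26.4 CPM in NSD and at 26.5 and 25.6 CPM in SD (log2 fold change -0.04, edgeR adjusted p = 0.824). Hapln4, the brevican-linked member, was at 69.5 and 74.7 CPM in NSD and at 78.3 and 73.0 CPM in SD (log2 fold change 0.07, edgeR adjusted p = 0.687). The values of both lay close together in all libraries. Hapln3, the rarest, was at 0.772 and 0.344 CPM in NSD and at 0.426 and 0.613 CPM in SD, and its log2 fold change of -0.10 turned to 0.63 without NSD library 1. Tenascin-R (Tnr), which cross-links lecticans and is made by oligodendrocytes and some neurons, was at 368 and 369 CPM in NSD and at 398 and 387 CPM in SD. Both SD libraries were higher, at a log2 fold change of 0.09 (adjusted p = 0.613 by edgeR). Tenascin-C (Tnc), which is common in development, was at 5.45 and 5.19 CPM in NSD and at 5.10 and 4.51 CPM in SD, both lower (log2 fold change -0.15, edgeR adjusted p = 0.676, and -0.05 without SD library 2).

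Markers of cells that make perineuronal matrix were counted in the same libraries. Astrocyte markers summed to 661 and 596 CPM in NSD and to 662 and 631 CPM in SD, and oligodendrocyte markers to 1927 and 1598 CPM in NSD and 1859 and 1769 CPM in SD, so that both overlapped between the groups. Interneuron markers summed to 1035 and 1023 CPM in NSD and to 1003 and 927 CPM in SD. The sum was lower in both SD libraries, but of its 9 genes this held for Cck alone, and none was called by edgeR, with 1 at an unadjusted p under 0.05, while the block called Sst lower. The gene at an unadjusted p under 0.05 was Pvalb, the marker of parvalbumin interneurons, at 13.6 and 13.0 CPM in NSD and at 17.4 and 14.4 CPM in SD (log2 fold change 0.26, edgeR adjusted p = 0.255). The part of these cells in the perineuronal values was not tested.

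Per kilobase of exon, which allows levels of different genes to be compared, the 4 most abundant matrix genes were all perineuronal. Ncan was at 35.3, 37.1, 39.0 and 41.4 CPM per kilobase in NSD 1, NSD 2, SD 1 and SD 2, Tnr at 27.2, 27.3, 29.4 and 28.6, Hapln4 at 17.3, 18.6, 19.5 and 18.2, and Bcan at 10.8, 10.6, 9.12 and 9.29. The ranges of these 4 genes do not overlap their neighbours in the order. Next came Col25a1 (mean 4.70 CPM per kilobase), Col4a2 (4.27), Hapln1 (3.71), Adamts4 (3.26), Adamts2 (3.24), Lamc1 (3.12), Lamb1 (2.79) and Col4a1 (2.67), and each of these overlapped the gene after it, except Col4a1. Further down the order, Acan stood at 1.72, Col5a1 at 0.734 and Col3a1 at 0.438. In the GENCODE M39 annotation, where Ncan reaches further than in the deposited table, Hapln4 and Ncan share 1255 exon bases on opposite strands, and the Ncan count is 519% of that of Hapln4, so the level of Hapln4 carries an uncertainty. The plot of the perineuronal genes shows differences between most genes far larger than those between groups. Acan (1.57 to 1.91 CPM per kilobase) and Vcan (1.31 to 1.58) are the exception, since their libraries overlap.

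**Figure D4:**
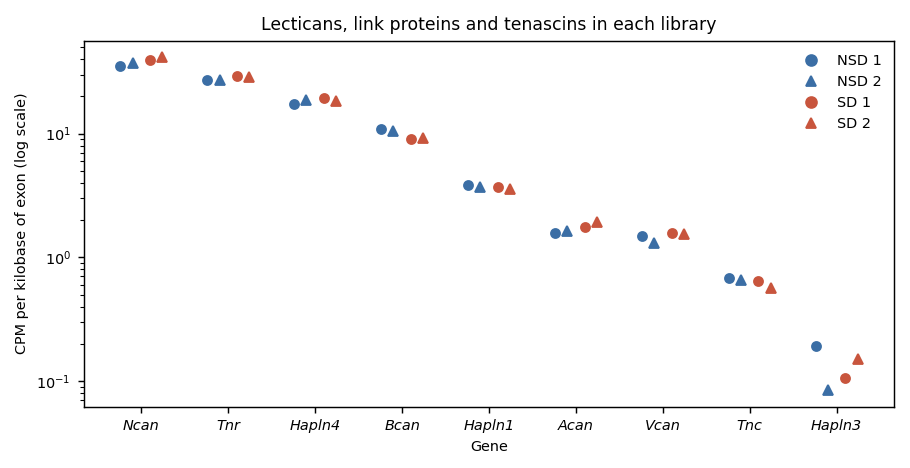
Level of the 9 perineuronal matrix genes in each library, in CPM per kilobase of exon on a log scale, with NSD in blue, SD in red, circles for library 1 and triangles for library 2. Genes run from Ncan (mean 38.2) to Hapln3 (mean 0.133). Libraries of Acan (1.57 to 1.91) and Vcan (1.31 to 1.58) overlap. For the genes other than Hapln3, Acan and Vcan the libraries lie close together beside the gaps between genes.

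Fold changes of the matrix genes were more negative at low levels, as for protein-coding genes at large. The 19 matrix genes under 1 CPM had a median log2 fold change of -0.38, against -0.19 for the protein-coding genes at that level. From 1 to 5 CPM the medians were -0.26 (31 genes) and -0.073, and from 5 to 20 CPM they were -0.12 (24 genes) and 0.0002. At 20 CPM and above they were 0.030 (12 genes) and 0.059. The median of the matrix genes was thus lower than that of protein-coding genes of like level in every band, by the least among the most abundant genes, as the plot of fold change against level shows.

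**Figure D5:**
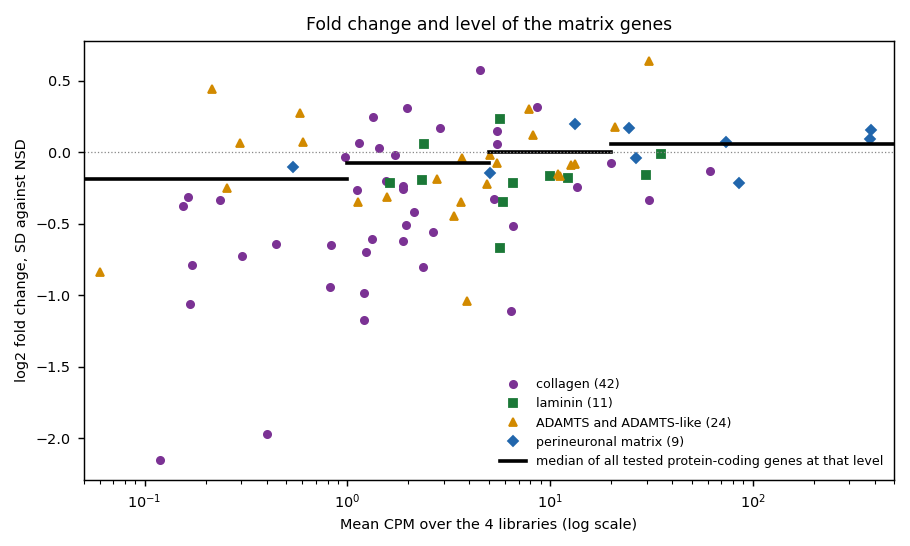
Log2 fold change (SD over NSD) of the 86 tested matrix genes against their mean CPM (log scale), by family, with black lines for the median of all tested protein-coding genes in each band of level. Collagens under 5 CPM lie mostly below the black lines, whereas perineuronal genes above 20 CPM lie close to theirs.

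Many matrix genes lie next to each other in the genome. There are 14 adjacent pairs that involve 27 members, 4 with divergent, 5 with convergent and 5 with the same orientation. By the gene coordinates of the deposited table, lecticans neighbour link proteins: Ncan with Hapln4 (2222 bases between them), Acan with Hapln3 (2 bases) and Vcan with Hapln1 (43659 bases), each in convergent orientation. Their log2 fold changes were 0.15 and 0.07, 0.20 and -0.10, and 0.17 and -0.04. Type IV collagen genes lie head to head, and the pairs were at -0.08 and -0.34 for Col4a1 and Col4a2 (which overlap by 22 bases), -0.94 and -0.65 for Col4a4 and Col4a3 (71 bases apart), and 0.03 and -0.02 for Col4a6 and Col4a5 (1308 bases apart). Col3a1, at 0.57, has Col5a2 next to it at -0.26. Neighbours thus differed in size and at times in sign, and none of these differences was tested.

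Other genes of the matrix pathway gave few calls. Of 26 tested genes for collagen processing, 0 rose and 2 fell by edgeR (against 0.540% of protein-coding genes and 2.33% of all genes tested called lower), with a median log2 fold change of -0.098. Bmp1, a protease that removes the carboxy-terminal propeptide of procollagen, was at 14.1 and 13.9 CPM in NSD and at 10.3 and 8.94 CPM in SD, or -0.54 on the log2 scale (edgeR adjusted p = 0.0409). Ppib, a prolyl isomerase of the endoplasmic reticulum, was at 21.7 and 22.2 CPM in NSD and at 16.3 and 16.1 CPM in SD, or -0.44 on the log2 scale (edgeR adjusted p = 0.0385). Both were also called with the block and by DESeq2. P3h3, a collagen prolyl hydroxylase, was called lower (log2 fold change -0.73, edgeR adjusted p = 0.00444 with the block) and P4ha1, another one, higher (0.31, edgeR adjusted p = 0.00677 with the block). Enzymes of the same process thus moved both ways.

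The other 4 lists gave 0 calls by edgeR in either direction, against 0.770% of all genes tested called higher and 2.33% lower. At an unadjusted p under 0.05, 1 gene was higher and 4 lower among the other basement membrane genes, 2 and 3 among receptors, 1 and 3 among the perineuronal and hyaluronan genes, and 5 and 1 among metalloproteinases, against 8.86% and 5.76% of protein-coding genes and 6.86% and 12.2% of all genes tested. DESeq2 and the fit with the block each called 1 to 3 genes of every list, against the shares over all genes given above for these settings. Among 21 other basement membrane genes, Fras1 was called higher with the block and by DESeq2, and Hspg2 (perlecan) and Fbln2 lower with the block alone, with a median of -0.050. Among 27 matrix receptors (median 0.048), Itga3, an integrin alpha chain that pairs in a laminin receptor, was called higher with the block and by DESeq2, at 18.8 and 19.7 CPM in NSD and 24.1 and 24.2 CPM in SD. Itga1, an alpha chain of a collagen receptor, was called lower in both settings, at 6.64 and 6.94 CPM in NSD and 5.16 and 3.54 CPM in SD, and so was Itga8. Among 24 other perineuronal and hyaluronan genes (median 0.033), Ptprz1, whose secreted form is the proteoglycan phosphacan, was called higher in both settings, at 155 and 153 CPM in NSD and 204 and 180 CPM in SD. Hapln2 and Nptx2 were called lower in both. Among 22 metalloproteinases and inhibitors (median 0.028), Adam19 was called higher in both settings and Timp4 lower with the block alone.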

How the data were processed

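The authors trimmed low-scoring 3′ bases, aligned reads with STAR to mm39 and assigned them to Ensembl genes by Partek Flow's E/M model. The deposited values are these estimated counts, unnormalized, and 55.6% of the genes have a value that is not whole. Libraries came from a stranded kit, and whether the counting used strand is not given in the sources used here.

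Counts were rounded, and edgeR 4.0.16 (R 4.3.3) tested those genes whose count exceeded 5 in each library (TMM scaling, quasi-likelihood fit on condition, Benjamini-Hochberg adjustment over all 22338 genes). Called genes had an adjusted p under 0.05 with a fold over 1.2. The alternatives were the batch number as a block, DESeq2 1.42.0, its size factors in edgeR, no count filter, filterByExpr, protein-coding genes only, no fold threshold, and each library left out in turn. The fits were also run on simulated counts with known changes, and the outcome is not reported here. The block pairs libraries by the batch in the labels, which equals the replicate number, and same-numbered libraries deviated from their group means together (correlation 0.178 across genes). Replicates are pools of different mice, and p-values measure the spread between pools. The library totals make counting error small except for genes with few counts.

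Named are all members called by any of edgeR, the block or DESeq2, all perineuronal members, the member of each other class with the highest count per kilobase of exon, and the 3 largest rises and falls. Other members are given briefly or within the ranges of their class, and 1 is not reported singly here. Members, classes and the other gene lists were chosen with earlier results of these data known. Exon lengths, overlaps and gene starts came from GENCODE M39 on the same build, which held all 88 members, and sequences from the GRCm39 genome. The s.d. after ± is a standard deviation over libraries.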

Additional observations from a re-analysis of the deposited data

How the results depend on the processing

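The number of matrix genes called depended on the fit. With the batch block, edgeR called 2 higher and 9 lower, and DESeq2 called 2 and 6, against 1 and 1 without the block. The adjusted p of Col5a1 is near the threshold, and 0 genes were called lower with DESeq2's size factors in edgeR, with no count filter and with protein-coding genes only, where 2.05%, 0.284% and 0.251% of all genes tested were, and filterByExpr called 0 higher and 0 lower (3 and 12 at an unadjusted p under 0.05), where 1 and 0 of all 24323 genes were called (6.55% and 11.6% unadjusted). Without a fold threshold edgeR still called 1 and 1. With each library left out in turn, edgeR called 1 gene higher each time and 0 to 10 lower. The lowest count, 0, came without NSD library 1, where 0.349% of all genes were called lower, and the highest, 10, without SD library 1, where 8.75% were, in fits that assume the lone library of a group to vary like the other pair. The block added 9 calls and ended none. The median log2 fold change of the 86 genes was between -0.21 and -0.16 in the fits of all 4 libraries. With a library left out it ran from -0.24 to 0.0011, and its sign turned without NSD library 1. Of the named genes, Lamc1 changed sign with DESeq2 (0.0115), with its size factors in edgeR (0.0116) and with no count filter (0.0170). Leaving out a library turned the sign of 6 named genes, none of them called, and their log2 fold changes then ran from -0.068 to 0.0062 for Hapln1, -0.57 to 0.63 for Hapln3, -2.35 to 0.0100 for Col7a1, -0.10 to 0.085 for Lamc1, -1.14 to 0.0084 for Col8a2 and -0.17 to 0.91 for Adamts14. The cause was not tested. With 2 pools a group, the spread between pools and not the depth limits precision, except for rarely counted genes such as Col28a1 and Adamts14.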
